A study of Mus musculus with 6 samples.

Results

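The genes described here take up, store, export and sense iron. The list held 8 genes, Tfrc, Slc11a1, Slc11a2, Slc40a1, Fth1, Aco1, Ireb2 and Cd163, and every array probe annotated to 1 of these symbols was taken. Probes were found for 6 of the 8 genes, with 11 probes in all, out of 11622 probes and 7897 genes that passed the filter on dim signals. Each of the 11 probes passed that filter and was above background on all 6 arrays. Aco1 and Cd163 are not analysed here, because none of the probes named in the annotation carries their symbols; that annotation names only probes of the authors' table, so probes for them may be among the unnamed ones.

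The cells were dendritic cells, which present antigen to T cells, and expression was measured with 1-colour Illumina mouse bead arrays. They were cultured for 6 days with GM-CSF and IL-4 (1.5 ng/ml each) from bone marrow of a 6-week-old mouse labelled C57BL/10NAGCSnAi-(KO) Rag2 on a C57BL background, so all 3 groups carry the Rag2 knockout, which prevents the formation of mature T and B cells. The study asked how reactive oxygen species (ROS) made inside the cells by light change dendritic cells, with lipopolysaccharide (LPS), a bacterial cell wall component, as the second stimulus. There were 2 arrays each of unstimulated cells, of ROS cells and of LPS cells. ROS cells took up the light-sensitive porphyrin hematoporphyrin (1 µg/ml, 1 h), were washed, received 3 min of light with a peak at 515 nm (3.1 mW per square cm), and were kept for a further 18 h. LPS cells received 1 µg/ml LPS over 18 h. Whether unstimulated cells were given hematoporphyrin, light or the extra 18 h is not in the labels, so each treated group may differ from them by more than its stimulus. Nor do they say whether the 2 arrays of a group came from separate cultures or animals. A p-value here reflects the spread between replicate arrays, pooled over the 3 groups and adjusted by that of all probes. This spread between replicates may be technical.

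Iron enters most cells bound to transferrin, through the receptor encoded by Tfrc. It leaves the endosome through Slc11a2 (DMT1), is stored in ferritin cages that contain the heavy chain Fth1, and is exported through Slc40a1 (ferroportin). Phagocytes carry the related transporter Slc11a1 (NRAMP1), which moves metal ions out of the phagosome and so away from engulfed bacteria. C57BL strains are known to carry an impaired form of its protein, which a transcript level does not show. Aco1 and Ireb2 encode the iron regulatory proteins, which bind iron-responsive elements in messenger RNAs. Such binding stabilises the Tfrc transcript and blocks translation of the Fth1 and Slc40a1 transcripts, so for Fth1 and Slc40a1 a transcript level need not follow the protein. Cd163 is a macrophage receptor for haemoglobin bound to haptoglobin.

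RefSeq promoter windows (GRCm38.p6, 250 bases before to 50 after each annotated start) were matched for 6 of the 8 genes, namely Tfrc, Slc11a1, Fth1, Aco1, Ireb2 and Cd163. Tfrc and Fth1 had 2 windows each. The stretches around the start of Tfrc (the upstream of its 2 annotated starts) and of Slc11a1 are shown because these genes changed in opposite directions after LPS. Both lie on the plus strand, run 5′ to 3′ from 120 bases before to 20 bases after the start, and carry in capitals the motif letters found by the search.
Tfrc, chr16:32608776-32608915: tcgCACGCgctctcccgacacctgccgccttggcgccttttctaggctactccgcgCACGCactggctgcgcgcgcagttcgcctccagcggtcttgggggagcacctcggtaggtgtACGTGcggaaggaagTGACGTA
Slc11a1, chr1:74375083-74375222: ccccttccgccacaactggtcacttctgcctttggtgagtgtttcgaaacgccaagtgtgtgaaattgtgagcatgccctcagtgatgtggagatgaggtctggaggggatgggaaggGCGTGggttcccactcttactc

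The Tfrc stretch holds the hypoxia response core ACGTG at base -2 from the start, the form GCGTG on the minus strand (read as CACGC above) at -117 and -64, and the short cyclic AMP response element TGACGTA at 14. The Slc11a1 stretch holds GCGTG at -2. Across the 32817 promoter windows of the table, ACGTG was found on either strand in 19.6%, GCGTG in 32.4% and TGACGTA in 1.27%. The E-box CACGTG contains ACGTG and was found in 7.15% of all windows, and in none of the windows of these genes. No window of these genes held TGACNNNGC (12.4% of all windows), TTCNNNGAA (8.29%), TGACTCA (5.2%), TGACGTCA (1.79%), the interferon-stimulated response core (3.43%) or the NF-kappaB core (1.63%). The window of the second Tfrc start, 226 bases downstream, shares ACGTG and TGACGTA with the first through their overlap and adds GCGTG at -134 and -42 from that start. GCGTG was also found in the second Fth1 window at -50 and ACGTG in the Cd163 window at 31, both on the minus strand. These matches describe letters in the windows, and binding at them was not measured.

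The arrays differed in overall brightness, which bears on small changes. The mean signal ran from 529 to 765 and was lowest on both LPS arrays, and 10428 to 11438 of 25697 probes were above background on an array. Replicate arrays correlated across probes at 0.988 to 0.993, above the highest value between groups (0.939). Changes below are differences of background-corrected, quantile-normalised log2 values (group means of 2 arrays) with standard errors from the limma fit over all probes, and a change was called at an adjusted p under 0.05. Where several probes report a gene, the probe with the highest mean stood for it in counts of genes.

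LPS changed the iron transport genes in both directions. The uptake receptor Tfrc and the exporter Slc40a1 fell about 6-fold (6.24-fold and 6.10-fold), and the metal transporters Slc11a1 and Slc11a2 rose (2.86-fold and 5.31-fold). Of the 6 measured genes, 2 rose and 2 fell, and Fth1 and Ireb2 did not pass the test. By probe, 6 of 11 rose and 3 fell, where 24.7% of all probes rose and 27.9% fell. The median size of the change was 1.96 (log2) over the 6 genes and 0.527 over all genes.

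After ROS 1 of the 6 genes passed the test. Slc11a2 rose by 0.45 (log2), a call that depended on the processing, and none fell, though 1 of the 4 Slc11a1 probes was called lower. By probe, 1 of 11 rose and 1 fell, where 20.7% of all probes rose and 18.6% fell. The median size of the change was 0.175 over the 6 genes and 0.384 over all genes.

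Set directly against ROS, the LPS cells had higher Slc11a1 and Slc11a2 and lower Tfrc and Slc40a1, and Fth1 did not pass the test. Ireb2 was called higher with quantile normalisation, and its difference was -0.00012 with median scaling and -0.13 with no scaling. By probe, 7 of 11 were higher and 3 lower, where 25.4% of all probes were higher and 29.3% lower. The comparisons of ROS and of LPS with unstimulated cells share the unstimulated arrays, and this direct comparison is the test of whether the 2 changes differ. The median size of the difference was 1.83 over the 6 genes and 0.538 over all genes.

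**Figure D1:**
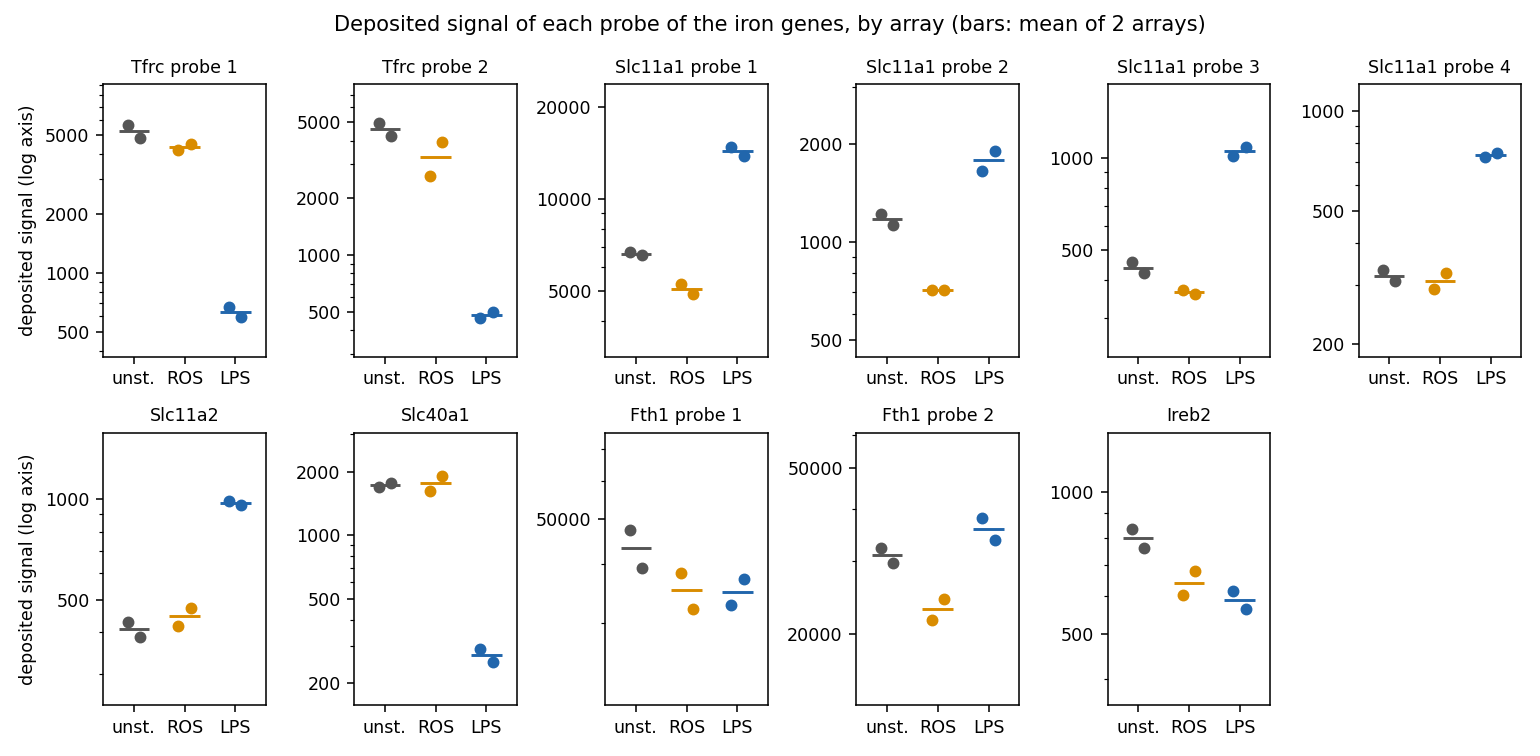
Deposited signal (arbitrary units, log axis, own range per panel) of each of the 11 probes on the 2 unstimulated (grey), 2 ROS (orange) and 2 LPS (blue) arrays, with points for arrays and bars for the mean of 2. Tfrc and Slc40a1 are lowest and all 4 Slc11a1 probes and Slc11a2 highest on both LPS arrays, while the group means of the Fth1 and Ireb2 probes lie closer together.

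Tfrc, the receptor for transferrin-bound iron, was read by 2 probes. The signal of the first (ILMN_2619848) was 5681 and 4852 on the unstimulated arrays, 4214 and 4533 on the ROS arrays, and 667 and 597 on the LPS arrays. Both LPS arrays lay far below all others. The log2 change after LPS was -2.64 ± 0.12 (SE, n = 2 arrays per group, adjusted p = 2.32e-05) and the difference between LPS and ROS was -2.55 ± 0.12 (adjusted p = 2.42e-05). After ROS the change was -0.10 ± 0.12 (adjusted p = 0.549), with a 95% interval from -0.38 to 0.19. The second probe (ILMN_2860804) gave signals of 4948 and 4239, 2607 and 3921, and 466 and 501 in the same order. Its LPS arrays were again the lowest, and its ROS arrays differed from each other more than those of the first probe. It changed by -2.89 ± 0.20 after LPS (adjusted p = 0.000128) and by -0.35 ± 0.20 after ROS (adjusted p = 0.218); without the second ROS array the latter became -0.64 and passed the test (adjusted p = 0.0399).

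Slc11a1, the phagosomal metal transporter, was read by 4 probes, and all of them were highest on the LPS arrays. The brightest (ILMN_2675811) gave 6698 and 6579.5 in unstimulated, 5282 and 4888 in ROS and 14817 and 13825 in LPS cells. Its groups did not overlap, and its log2 change was 1.52 ± 0.12 after LPS (adjusted p = 0.000214) and 1.71 ± 0.12 between LPS and ROS (adjusted p = 0.000121). After ROS it was -0.19 ± 0.12 (adjusted p = 0.267, 95% interval -0.49 to 0.11).

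The other Slc11a1 probes agreed on the direction after LPS and not after ROS. ILMN_2983516 gave 1223 and 1127 in unstimulated, 709 and 709.9 in ROS and 1657 and 1911 in LPS cells. It was called lower after ROS, at -0.65 ± 0.12 (adjusted p = 0.00888; 0.0559 without the second unstimulated array), and rose by 1.34 ± 0.12 after LPS (adjusted p = 0.000349). ILMN_2674884 gave 457 and 419.7, 369.6 and 359, and 1018 and 1089 in the same order, and ILMN_2692797 gave 332 and 307, 292 and 326, and 728 and 749. Both of these dimmer probes also rose after LPS, by 2.38 ± 0.11 and 2.55 ± 0.14 (adjusted p = 3.1e-05 and 4.73e-05). After ROS they changed by -0.13 ± 0.11 and 0.16 ± 0.14 (adjusted p = 0.413 and 0.405), so the 4 probes did not share a sign after ROS, and for ILMN_2692797 the sign turned without scaling between arrays.

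Slc11a2, which carries iron out of endosomes, was read by 1 probe (ILMN_2665063). Its signal was 429.9 and 387 in unstimulated, 419 and 473 in ROS and 984 and 963 in LPS cells. The LPS arrays stood apart, whereas the deposited signals of the ROS and unstimulated arrays overlapped. The log2 change was 2.41 ± 0.12 after LPS (adjusted p = 4.06e-05) and 1.96 ± 0.12 between LPS and ROS (adjusted p = 7.57e-05). The rise after ROS was 0.45 ± 0.12 (adjusted p = 0.0337), and it rested on the processing. It no longer passed the test with median scaling (0.32, adjusted p = 0.133), with no scaling (0.21, adjusted p = 0.331), without a filter on dim probes (adjusted p = 0.0664), with a block for the replicate number (adjusted p = 0.0569), or when either unstimulated array or the second ROS array was left out (adjusted p = 0.102, 0.141 and 0.131).

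Slc40a1, the iron exporter, was read by 1 probe (ILMN_2747923), with signals of 1696.5 and 1767 in unstimulated, 1627 and 1899 in ROS and 290.4 and 253 in LPS cells. The ROS and unstimulated arrays overlapped, and the LPS arrays lay well below both. It fell by 2.61 ± 0.16 on the log2 scale after LPS (adjusted p = 8.17e-05) and lay lower in LPS than in ROS cells, at -2.85 ± 0.16 (adjusted p = 5.25e-05). After ROS the change was 0.24 ± 0.16 (adjusted p = 0.292, 95% interval -0.16 to 0.64).

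Fth1, the ferritin heavy chain, gave some of the brightest signals, close to the top of the range, which ended at 58168 to 64231 on the 6 arrays. Its first probe (ILMN_2876066) read 47374 and 39226 in unstimulated, 38389.6 and 32214 in ROS and 32883 and 37166 in LPS cells. The LPS and ROS arrays overlapped, and no comparison passed the test, with log2 changes of -0.0010 ± 0.16 after ROS, 0.21 ± 0.16 after LPS and 0.22 ± 0.16 between LPS and ROS (adjusted p = 0.997, 0.313 and 0.308). The second probe (ILMN_2876071) read 32214 and 29605, 21604 and 24280.1, and 37942 and 33703 in the same order, with both LPS arrays the highest. It changed by 0.75 ± 0.12 after LPS and 0.86 ± 0.12 between LPS and ROS (adjusted p = 0.00319 and 0.00165) and by -0.11 ± 0.12 after ROS (adjusted p = 0.499). The 2 probes thus disagreed on the call after LPS, and the call of the second was lost without scaling between arrays (0.21, adjusted p = 0.242). Ferritin heavy chain has near-identical pseudogene copies in the mouse genome, so which copies each probe reads is uncertain.

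Ireb2, which encodes iron regulatory protein 2, was read by 1 probe (ILMN_3161612), with signals of 833 and 761 in unstimulated, 603 and 678 in ROS and 615 and 564 in LPS cells. The deposited signals were highest in unstimulated cells, and those of ROS and LPS cells overlapped. After quantile normalisation the LPS group was the highest, with a change of 0.30 ± 0.12 after LPS (adjusted p = 0.0864) and 0.46 ± 0.12 between LPS and ROS (adjusted p = 0.0209), and -0.16 ± 0.12 after ROS (adjusted p = 0.339). The direction after LPS turned with median scaling (-0.27, adjusted p = 0.133) and with no scaling (-0.51, adjusted p = 0.0177). Under these scalings the median of all probes lay at -0.49 and -0.73, so relative to the other probes of the array Ireb2 stayed on the higher side in each case. The call between LPS and ROS was lost without the first ROS or the first LPS array (adjusted p = 0.094 and 0.0842).

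**Figure D2:**
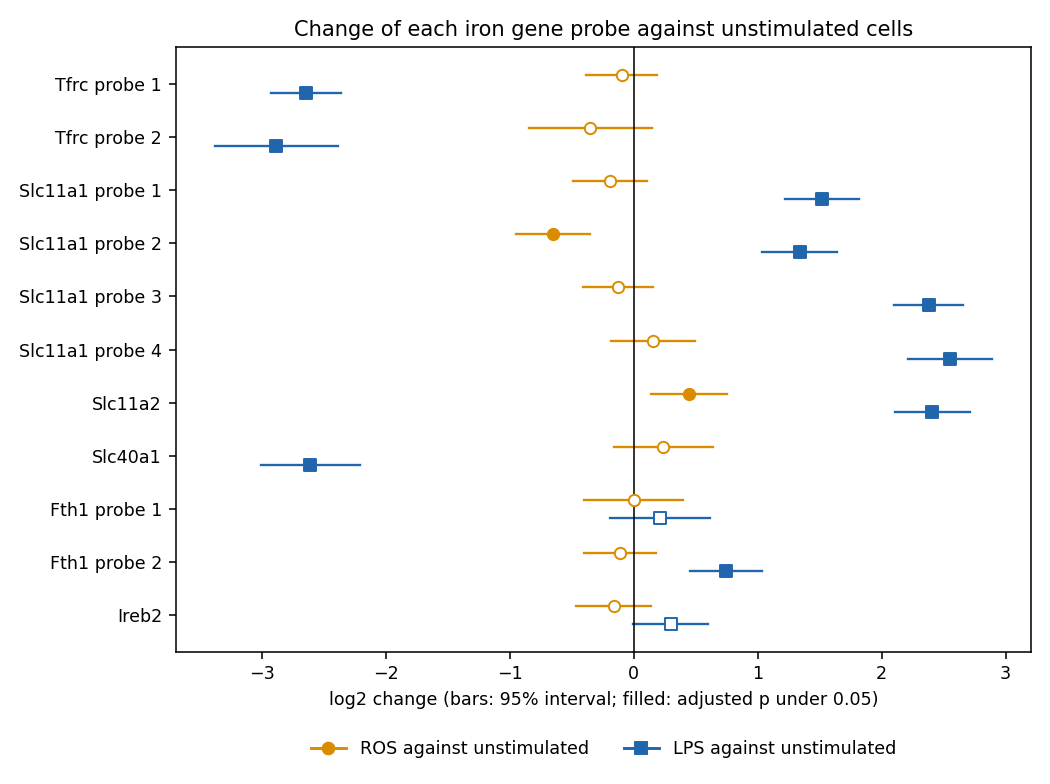
Log2 change of each probe of the 6 measured genes in ROS (orange circles) and LPS cells (blue squares) against unstimulated cells, with 95% intervals from the limma fit (2 arrays per group). Filled symbols have an adjusted p under 0.05; after LPS the Tfrc and Slc40a1 probes lie between -2.89 and -2.61 and the Slc11a1 and Slc11a2 probes between 1.34 and 2.55, while the changes after ROS lie between -0.65 and 0.45.

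Tfrc, Slc11a1, Slc11a2 and Slc40a1 kept their calls after LPS and between LPS and ROS under each of the 15 alternative settings that were run. The change after LPS ranged from -3.34 to -2.43 for Tfrc, from 1.13 to 1.95 for Slc11a1, from 1.65 to 2.45 for Slc11a2 and from -3.47 to -2.05 for Slc40a1. The split of calls over the whole array moved with the scaling. Of the probes called after LPS, 46.9% were higher with quantile normalisation, 48.9% in the authors' own values, 18.4% with median scaling and 11.5% with no scaling. Between LPS and ROS these shares were 46.5%, 47.7%, 23.5% and 18.5%, and after ROS 52.7%, 54.1%, 42.8% and 32.0%.

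**Figure D3:**
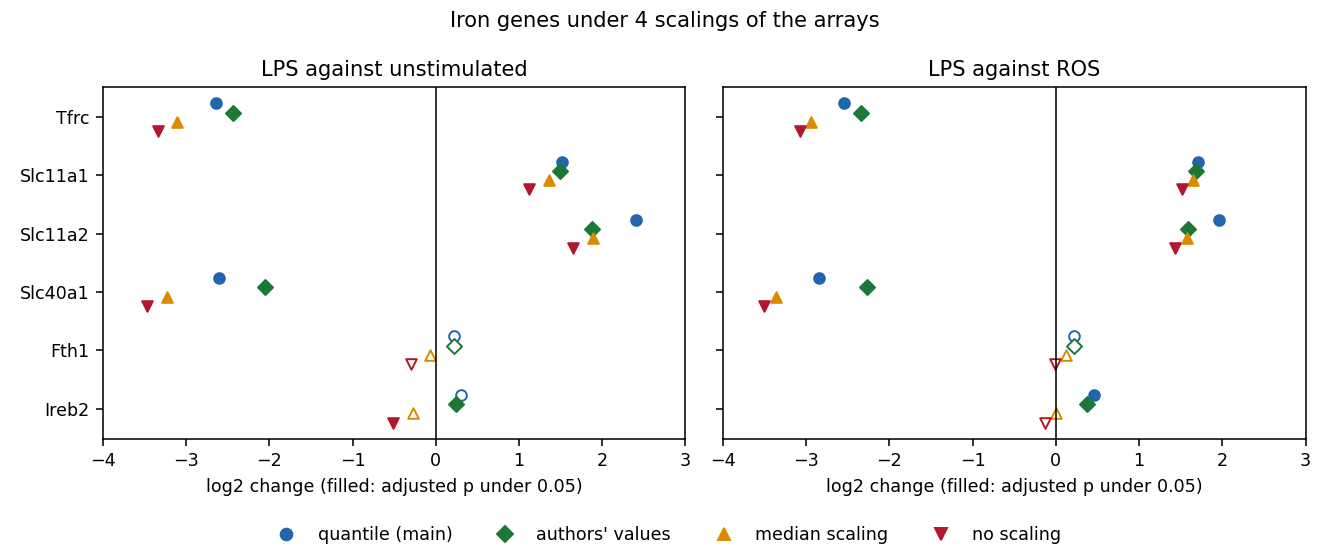
Log2 change of the 6 genes (brightest probe) after LPS and between LPS and ROS under 4 ways of scaling the arrays: quantile normalisation, the authors' deposited values, median scaling and no scaling. Filled symbols have an adjusted p under 0.05; Tfrc, Slc11a1, Slc11a2 and Slc40a1 stay on their side of 0 throughout, whereas Fth1 and Ireb2 after LPS lie at 0.21 and 0.30 with quantile normalisation and at -0.30 and -0.51 with no scaling.

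The genes whose pattern over the 6 arrays lay closest to each member were found by the root mean square difference between log2 values centred on each gene's own mean. For Tfrc these were Tmem154 and Prc1 (0.0817 and 0.0902), which changed by -2.82 and -2.60 after LPS. Prc1, which encodes a protein of the mitotic spindle midzone, was also the closest to Slc40a1 (0.126), followed by Mbp (0.14). Slc11a1 lay closest to the acyl-CoA synthetase gene Acsl4 and to Kctd21 (0.0308 and 0.0769). Slc11a2 lay closest to the mitochondrial carrier gene Slc25a33 and to the sulfotransferase gene Tpst1 (0.0382 and 0.069). Fth1 lay closest to Sprr1a and Gpsm3 (0.0609 and 0.0685), and Ireb2 to Tor4a and Prpf40b (0.0417 and 0.0444). Such likeness describes 6 arrays in 3 groups.

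Of 76 further symbols of iron genes in 5 lists by role, 34 were measured; Hjv and Hfe2, neither of them measured, are symbols of the same gene. After ROS 4 rose and 12 fell, after LPS 6 rose and 15 fell, and between LPS and ROS 10 were higher and 13 lower. Over all 7897 genes 1723 rose and 1423 fell after ROS, 1950 rose and 2289 fell after LPS, and 1963 were higher and 2438 lower between LPS and ROS. Whether any of the lists below differed from all genes in these shares was not tested. The counts of rises and falls moved with the scaling: with no scaling 3 rose and 15 fell after ROS, 2 rose and 27 fell after LPS, and 6 were higher and 20 lower between LPS and ROS. The number of rises after ROS also reached 9 in the authors' values and without background correction. Sizes moved too. With no scaling the changes after LPS lay at -3.55 for Hfe, -2.53 for Hp, -1.79 for Ncoa4, -1.76 for Isca1, -1.65 for Bola3, -1.55 for Pcbp2, -1.51 for Slc48a1, -1.46 for Blvra, -1.42 for Smad6 and 0.96 for Ciapin1, against a median of -0.73 over all probes.

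Of 6 measured genes of cellular and lysosomal iron transport, 5 fell after ROS, and after LPS 4 fell while Lcn2 and Mcoln1 rose. Trf, the iron carrier transferrin itself, had signals of 19912 and 15545 in unstimulated, 1956 and 2173 in ROS and 4467 and 4574 in LPS cells. Its groups did not overlap, and it changed by -2.99 ± 0.13 after ROS and -1.54 ± 0.13 after LPS (adjusted p = 8.63e-05 and 0.000233), so it was higher in LPS than in ROS cells (1.46 ± 0.13, adjusted p = 0.000247). Hfe, the haemochromatosis gene whose protein binds the transferrin receptor, had 2497 and 2193 in unstimulated, 498 and 542 in ROS and 308 and 324 in LPS cells. It changed by -2.35 ± 0.12 and -2.71 ± 0.12 (adjusted p = 0.000126 and 2.42e-05).

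The iron-binding granule protein gene Ltf (lactoferrin) changed by -1.77 ± 0.11 after ROS and -6.98 ± 0.11 after LPS (adjusted p = 0.000218 and 2.88e-06). Its second probe gave -1.93 and -2.24, so the size after LPS differed between probes; the first probe gave -5.83 after LPS in the authors' values. Lcn2, which binds bacterial iron carriers, changed by -0.38 ± 0.11 after ROS and 0.92 ± 0.11 after LPS (adjusted p = 0.0396 and 0.00114); the call after ROS was lost in 9 of 15 alternative settings. Ltf and Lcn2 are also neutrophil granule genes and stand in the neutrophil marker list below. Mcoln1, a channel that releases iron from lysosomes, changed by -0.59 ± 0.18 after ROS and 1.23 ± 0.18 after LPS (adjusted p = 0.0396 and 0.00198), and differed by 1.83 ± 0.18 between the treatments (adjusted p = 0.000359), a difference that was 0.955 in the authors' values, 1.26 with median scaling and 1.13 with no scaling. The call for Mcoln1 was lost after LPS with no scaling (0.33, adjusted p = 0.163) and after ROS in the authors' values (-0.24, adjusted p = 0.0515).

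Among 4 genes of ferritin loading and turnover, 1 rose and 1 fell after ROS and 2 fell after LPS. Pcbp2, an iron chaperone that also binds RNA, changed by -0.92 ± 0.15 and -0.87 ± 0.15 (adjusted p = 0.00579 and 0.0046), and its relative Pcbp1 was lower in LPS than in ROS cells (-0.47 ± 0.15, adjusted p = 0.0337). Ncoa4, the receptor that takes ferritin to lysosomes, changed by 5.1e-04 ± 0.13 after ROS (adjusted p = 0.998; -0.11 and -0.21 with median and no scaling, not passing the test) and by -0.94 ± 0.13 after LPS (adjusted p = 0.0017). Herc2, a ubiquitin ligase that acts on that receptor, rose by 0.53 ± 0.12 after ROS (adjusted p = 0.0168), a call lost without scaling and without any 1 of 3 arrays (adjusted p = 0.113 without scaling; 0.094 and 0.053 without the first and second unstimulated array and 0.0781 without the first ROS array). The call for Pcbp1 was lost in 8 of 15 alternative settings. The ferritin light chain gene Ftl1 was not measured.

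Of the 14 listed symbols of sensing and systemic control 3 were measured, and Hamp, which encodes the hormone hepcidin, was not. Id1, a target of bone morphogenetic protein signalling, was above background on both unstimulated and both ROS arrays and on neither LPS array, and was at least 2.61-fold lower after LPS and at least 4.71-fold lower in LPS than in ROS cells on the background-corrected scale (adjusted p = 0.00172 and 0.000362). In the authors' values these differences were -0.61 and -1.08 (log2). The change of Id1 after ROS was 0.85 ± 0.27 (adjusted p = 0.0513) and passed the test in the authors' values (0.47, adjusted p = 0.0179). Smad6, an inhibitor of the same signalling, changed by -1.12 ± 0.13 after ROS and -0.75 ± 0.13 after LPS (adjusted p = 0.00174 and 0.00481), whereas its second probe gave -0.04 and 0.01; in the authors' values the first probe gave -0.38 and -0.24. Fbxl5, which marks Ireb2 protein for degradation when iron is plentiful, changed by -0.20 after ROS and 0.09 after LPS (adjusted p = 0.282 and 0.596), and after LPS its sign turned and it passed the test with median scaling (-0.60, adjusted p = 0.01) and with no scaling (-0.83, adjusted p = 0.00173).

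Heme genes fell after ROS in 4 of 8 cases and rose in none; after LPS 3 fell and 1 rose. Hmox1, the heme oxygenase that frees iron from heme, had signals of 2402 and 1959.5 in unstimulated, 847 and 638 in ROS and 942 and 1228 in LPS cells. Both treated groups lay below the unstimulated arrays. Its normalised change was -1.59 ± 0.24 after ROS (adjusted p = 0.0039) and -0.41 ± 0.24 after LPS (adjusted p = 0.193), and it was higher in LPS than in ROS cells (1.18 ± 0.24, adjusted p = 0.00708). With median scaling and with no scaling the change after LPS was -0.86 and -1.10 and passed the test (adjusted p = 0.0127 and 0.00236).

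Lrp1, a receptor that takes up heme bound to hemopexin, was above background on neither ROS array and at least 2.30-fold lower after ROS on the background-corrected scale (adjusted p = 0.0032; log2 change -0.56 in the authors' values). Blvrb, a biliverdin reductase, changed by -0.66 ± 0.11 after ROS and 0.56 ± 0.11 after LPS (adjusted p = 0.00557 and 0.00663), and Blvra, the other reductase, by -0.62 ± 0.11 and -0.80 ± 0.11 (adjusted p = 0.00678 and 0.00158). With no scaling Blvrb after LPS lay at 0.17 and did not pass the test (adjusted p = 0.334). Hp, the haemoglobin-binding haptoglobin, changed by -1.65 ± 0.14 after LPS (adjusted p = 0.000228), with its 3 probes between -1.97 and -1.48. The heme transporter Slc48a1 changed by -0.83 ± 0.13 after LPS (adjusted p = 0.00304).

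Genes of mitochondrial iron and iron-sulfur clusters were mixed, with 3 of 13 higher and 1 lower after ROS and 3 higher and 4 lower after LPS. Among all probes, 20.7% rose and 18.6% fell after ROS, and 24.7% rose and 27.9% fell after LPS. Iscu, the scaffold on which clusters are built, rose by 1.05 ± 0.11 after ROS (adjusted p = 0.000991) and was lower in LPS than in ROS cells (-1.29 ± 0.11, adjusted p = 0.000207). Isca1, an assembly factor, changed by -0.97 ± 0.13 and -0.95 ± 0.13 after ROS and LPS (adjusted p = 0.00247 and 0.00158). Nubp2 and Ciapin1, which assemble clusters in the cytosol, rose after ROS by 0.86 ± 0.13 and 0.77 ± 0.13 (adjusted p = 0.00363 and 0.0068) and after LPS by 0.88 ± 0.13 and 1.73 ± 0.13 (adjusted p = 0.00203 and 0.000184). The rise of Nubp2 after LPS was lost with median scaling and with no scaling (0.29 and 0.06, adjusted p = 0.139 and 0.787). The transporter gene Abcb10 was above background on neither LPS array and at least 1.87-fold lower after LPS on the background-corrected scale (adjusted p = 0.0037; log2 change -0.37 in the authors' values). Bola3 was lower in LPS than in ROS cells by -1.04 ± 0.13 (log2, adjusted p = 0.000907).

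**Figure D4:**
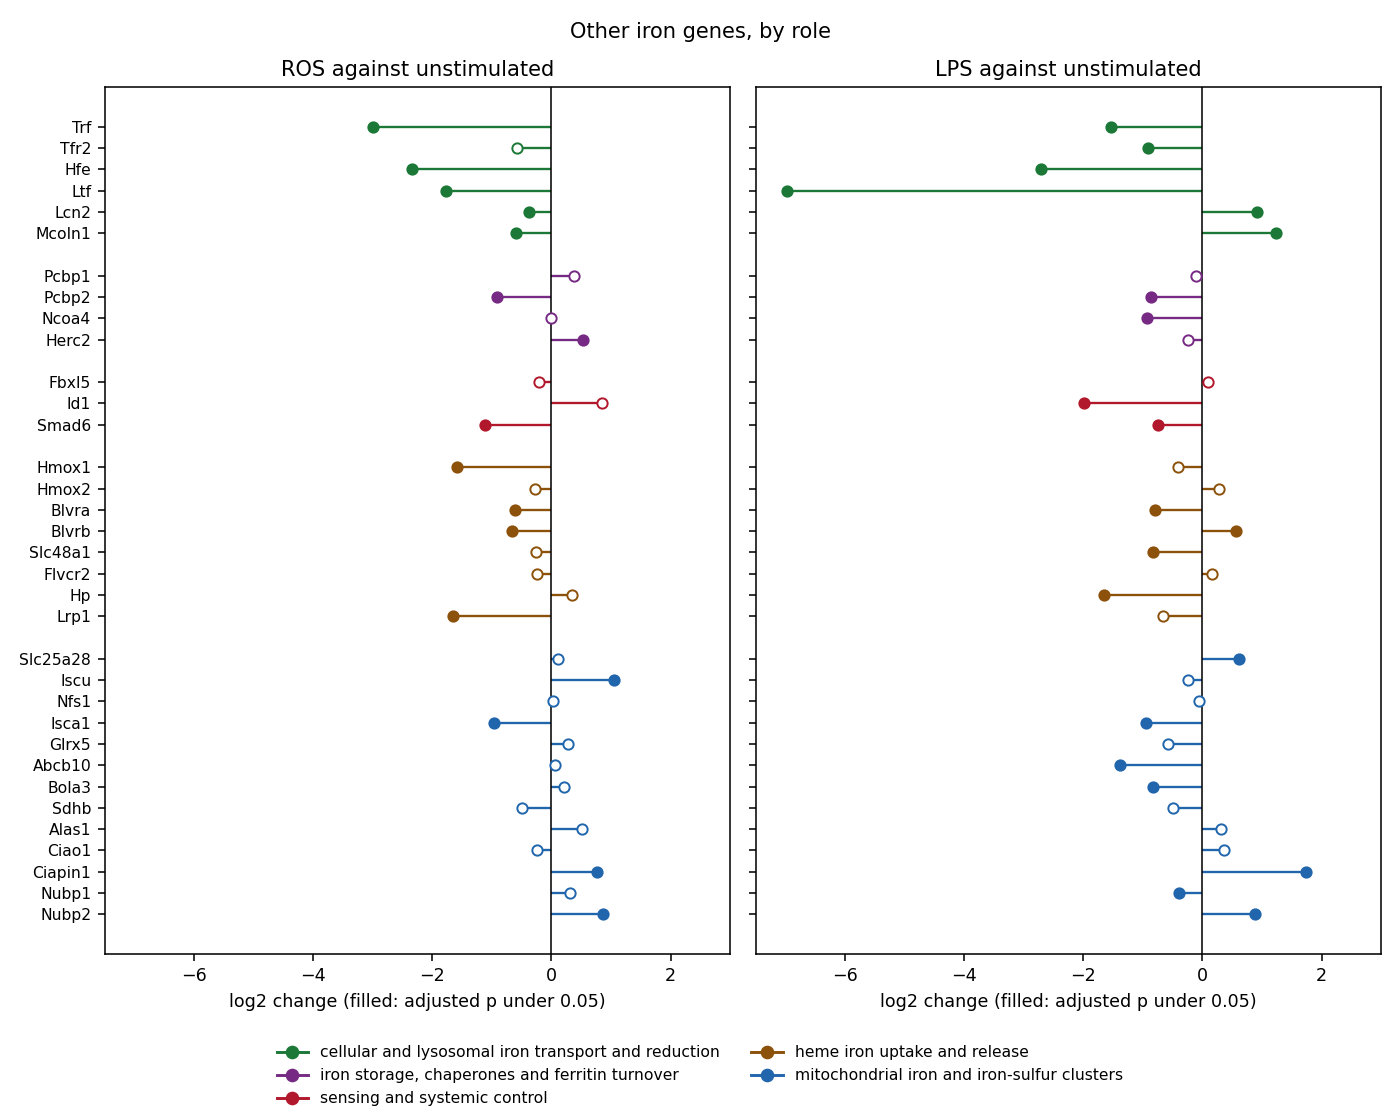
Log2 change of 34 further iron genes (1 probe each, ordered by role) after ROS and after LPS, each against unstimulated cells. Filled points have an adjusted p under 0.05; Trf and Hfe lie below 0 in both panels and Ltf reaches -6.98 after LPS, and the points of Tfr2, Id1 and Abcb10 after LPS and of Tfr2 and Lrp1 after ROS are fitted values of probes not above background on every array of that group.

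Markers of other cells and of dividing cells moved with these groups, and in RNA from a whole culture fewer cells of a type and less RNA per cell cannot be told apart. For comparison with the counts of each marker list, 20.7% of all probes rose and 18.6% fell after ROS. After LPS 24.7% of all probes rose and 27.9% fell. Proliferation genes rose after ROS in 6 of 7 cases and fell after LPS in 5 of 7, with 1 rise. Their summed normalised level was 2615 to 2685 in unstimulated, 6449 to 6456 in ROS and 1746 to 1773 in LPS cells. Without Tyms, the gene that rose after LPS, the sum in LPS cells was 676.3 to 703.2. The 4 probes of Tyms changed by between 0.02 and 1.14 after LPS, and the brightest, used here, gave the highest value. Top2a and Rrm2 were above background on neither LPS array. Tfrc fell after LPS, as did 5 of these 7 genes, and did not pass the test after ROS, where 6 of the 7 rose. A link between Tfrc and these genes was not tested. Macrophage markers fell after ROS in 4 of 8 cases and after LPS fell in 4 and rose in 4. Their summed level was 16560 to 17010, 1468 to 1578 and 7142 to 7404 in the 3 groups, in the same order. Marco, 1 of the 4 called higher after LPS, was above background on both LPS arrays and on neither unstimulated array. Its deposited signals were 177 and 173 in unstimulated and 170 and 165 in LPS cells, so the signal itself did not rise. Within that list Mrc1, C1qb and C1qc were the brightest in unstimulated cells (mean log2 12.85, 12.47 and 10.94). They changed by -4.12, -5.67 and -5.06 after ROS, whereas 4 of the 8 genes did not pass the test. Slc11a1 (brightest probe) and Slc40a1, which macrophages express, did not pass it there either. Slc11a1 probe ILMN_2983516 was called lower after ROS (-0.65, adjusted p = 0.00888). After LPS the Fc receptor gene Fcgr1 and the sialic acid receptor gene Siglec1 rose by 4.51 and 4.61. Without Fcgr1 the summed macrophage level was 16490 to 16940 in unstimulated, 1386 to 1510 in ROS and 5661 to 5853 in LPS cells.

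Neutrophil and granulocyte precursor genes fell after LPS in 10 of 11 cases, with Ngp, Mpo, Prtn3 and Ctsg above background on neither LPS array. After ROS 4 rose (Elane, Mpo, Prtn3 and Ctsg) and 5 fell (Ltf, Ngp, Camp, Lcn2 and Retnlg). Their summed level was 58200 to 59990 in unstimulated, 45060 to 48610 in ROS and 19060 to 19400 in LPS cells. Lcn2, the 1 gene of that list that rose after LPS, made up 16740 to 16990 of the sum in LPS cells. Without it the sums were 49180 to 51160, 38550 to 41410 and 2324 to 2408. Of 3 erythroid genes measured 1 rose after ROS, and 1 rose and 2 fell after LPS (summed level 1122 to 1178, 1493 to 1535 and 434.9 to 464, mostly the haemoglobin gene Hba-a1). Epor, the gene called higher after LPS, was above background on neither unstimulated array. Its deposited signals were 179 and 173 in unstimulated and 173 and 169 in LPS cells. Tfr2, 1 of the 2 that fell, was above background on neither LPS array. Mast cell and basophil genes rose after ROS in 4 of 5 cases, and after LPS 4 fell and 1 rose (summed level 2376 to 2514, 9574 to 10010 and 12890 to 14650), with Fcer1a above background on neither LPS array. The sum in LPS cells was almost all Hdc (12590 to 14400), which rose, and without it the sums were 1792 to 1871, 6796 to 7309 and 253.3 to 302.4. Of 10 dendritic cell markers 4 rose and 3 fell after ROS and 6 fell after LPS (summed level 84070 to 94720, 51430 to 51460 and 48370 to 53210). H2-Ab1 made up 44540 to 51240, 13590 to 14090 and 29910 to 31210 of these sums. Without it they were 39530 to 43480 in unstimulated, 37340 to 37870 in ROS and 18460 to 22000 in LPS cells. Cd74 and H2-Ab1, which serve antigen presentation, were above background on all arrays, and Itgax, which encodes CD11c, on 1 of 2 LPS arrays and on all others. The part of these shifts in the changes of the iron genes was not tested.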

How the data were processed

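Probe intensity on a linear scale and detection p-values were deposited by the authors for 25697 probes; the submitters' processing notes name GenomeStudio 2009.2, and no source used here states whether background was subtracted. A second deposited table holds the authors' log2 values of 11220 probes, quantile normalised as read from the values; it listed probes detected on at least 3 arrays. The second LPS array had no detection p-values beside its signals, and its detection limit was recovered from that list (between 160.52 and 160.567). The background mean and spread used to correct this array were estimated from that limit, its own signals and the values of the other arrays. Of the authors' probes, 10558 had 1 gene symbol in the platform annotation, 0 several and 662 none; other probes are unnamed here.

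Signals were background-corrected (limma's normexp), given an offset of 16, quantile normalised and log2-transformed. A probe was kept if both arrays of any group detected it (p under 0.05), which left 11622. Groups were compared with limma 3.58.1 in R 4.3.3 (lmFit, eBayes, 1 coefficient per group, 3 residual and 3.02 prior degrees of freedom), with two-sided p-values and Benjamini-Hochberg adjustment across the kept probes. The fit was tested on simulated data. Where a group lacked signal above background, the fold is a bound: the brighter group's mean against, per array of the dimmer group, the higher of the lowest detected value and the probe's own.

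All probes of the 8 genes were named; of the 5 role lists, the up to 3 called genes with the largest change per comparison, and Ftl1, Hmox1, Ltf, Lcn2 and Hamp where measured. Values of a named gene in the other comparisons, Fbxl5 and single markers were added after the values were seen. The genes, lists and markers were chosen with earlier results of these data known. Alternatives covered background, offset, scaling, the authors' values, the filter, a replicate block, 2-group fits, each array left out, and probe averaging. The precision is limited by 2 arrays per group.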

Additional observations from a re-analysis of the deposited data

How the results depend on the processing

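The count of called iron genes after ROS, 1 of 6, became 0 with median scaling, with no scaling, with no filter on detection and with the replicate block, and lay between 0 and 1 when each array was left out in turn (0 without the first or second unstimulated or the second ROS array). The counts of 4 after LPS and 5 between LPS and ROS lay between 4 and 5 and between 4 and 6 under all alternatives; with the replicate block they were 4 and 5. Same-numbered arrays did not deviate together across probes (correlations of deviations -0.104, 0.021 and -0.0232). With 2 arrays per group this cannot decide whether same-numbered arrays shared a culture or day, since other spread between arrays can mask a shared effect. The sign turned for Slc11a1 probe ILMN_2692797 after ROS with no scaling (-0.0423), for Fth1 probe ILMN_2876066 after LPS with median scaling (-0.0649) and no scaling (-0.30) and between LPS and ROS with no scaling (-0.0083), and for Ireb2 after LPS (-0.27 and -0.51) and between LPS and ROS (-0.00012 and -0.13) with median and no scaling. For that Fth1 probe after ROS the change lay between -0.18 and 0.18 when each array was left out in turn (0.08 without the first unstimulated array). The medians of all probes under median and no scaling were -0.0474 and -0.151 after ROS, -0.489 and -0.727 after LPS, and -0.414 and -0.548 between LPS and ROS. With the mean of its probes Fth1 passed the test after LPS (0.48, adjusted p = 0.00996) and between LPS and ROS (0.54, adjusted p = 0.00616), and Ireb2 passed it after LPS without background correction (adjusted p = 0.0357) and in the authors' values (adjusted p = 0.0343). Alternatives for the role-list genes were added after seeing the data. Smad6 after LPS lost its call with the mean of its 2 probes (-0.37, adjusted p = 0.106). The number of role-list genes that rose after ROS was 4, 7 with an offset of 50 and 9 without background correction and in the authors' values; the number that fell after LPS was 15, 23 with median scaling and 27 with no scaling. A tally covered the probes of the 6 genes and Hmox1, Ltf and Lcn2 in all comparisons, and the other role-list genes in the comparisons that named them. In it 1060 alternative values kept their direction and stayed either called or not called, 33 lost the call, 7 gained one and 10 turned sign. The 1060 thus include values that were not called in the main fit. Outside that tally, median and no scaling also turned the sign of Fbxl5 after LPS (-0.60 and -0.83) and of Ncoa4 after ROS (-0.11 and -0.21). Causes were not tested.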
